A study of Homo sapiens with 8 samples.

Results

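The integrated stress response genes examined here are 10 genes, *EIF2AK3*, *ATF4*, *DDIT3*, *TRIB3*, *CHAC1*, *PPP1R15A*, *ASNS*, *PHGDH*, *PSAT1*, and *SHMT2*, out of 23193 genes counted in the experiment. They were found by their gene symbol in both deposited tables, one of reads in gene bodies and one of reads around transcription start sites (TSS), by a rule that uses no measured value. The set was nevertheless drawn up with earlier results of these data known. All 10 had a row in both tables and all 10 passed the filter on low counts in both, which 16686 gene bodies and 15212 TSS regions passed. Nascent transcription was measured by PRO-seq, a run-on assay whose reads count transcriptionally engaged RNA polymerases rather than accumulated RNA. The cells were HCT116, an established human colorectal carcinoma line, as WT cells or as a HIF1A-/- line in which *HIF1A* had been disrupted by homologous recombination. Each genotype was kept in normoxia (21% O2) or in hypoxia (1% O2) for 90 min, with 2 independent cultures per group, for 8 libraries in 4 groups. The methods of the study name 0.1% DMSO as the vehicle of PRO-seq cultures, but do not say which of these cultures received it. HIF1A is the oxygen-regulated subunit of the transcription factor HIF1. Whether the acute response to low oxygen depends on it is the question that the design addresses. A single HIF1A-/- line stands for the genotype, so effects of losing HIF1A and other differences between the 2 lines cannot be told apart.

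The integrated stress response starts with kinases that phosphorylate the translation initiation factor eIF2. Phosphorylated eIF2 lowers protein synthesis in general but favours translation of the *ATF4* mRNA, and the ATF4 protein, a bZIP transcription factor, then switches on genes for amino acid supply, redox balance, and feedback control of the pathway. *EIF2AK3* encodes PERK, the kinase of the endoplasmic reticulum, and low oxygen is one of the stresses known to activate it. *DDIT3* encodes CHOP, a bZIP factor downstream of ATF4, *TRIB3* a pseudokinase that restrains both factors, and *PPP1R15A* the phosphatase subunit GADD34, which brings eIF2 back to its unphosphorylated form. *CHAC1* encodes an enzyme that breaks down glutathione. *ASNS* makes asparagine, *PHGDH* and *PSAT1* catalyse the opening steps of serine synthesis, and *SHMT2* converts serine to glycine in mitochondria. Since the step from eIF2 to ATF4 is translational, counts of engaged polymerases do not measure eIF2 phosphorylation or the amount of ATF4 protein, and report only on transcription of these genes.

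The composite C/EBP-ATF element, through which ATF4 and its C/EBP partners bind, was looked for from 500 bp upstream to 500 bp downstream of the start site used for counting, on both strands of GRCh37. The loose form TGATGNAA occurred near 6 of the 10 genes, *DDIT3*, *TRIB3*, *CHAC1*, *ASNS*, *PSAT1*, and *SHMT2*, and in 8.78% of the windows of all 23193 genes. The strict form TGATGCAAT, which contains the loose one, was found near *DDIT3*, and in 0.427% of all windows. The sequences are shown because this element is the known route from ATF4 to its targets, each as 30 bases 5′ to 3′ on the coding strand of its gene, in lower case with the element in capitals. Capitals that begin with TTGCATCA, or with ATTGCATCA at *DDIT3*, are matches on the strand opposite to the gene, and the last sequence marks instead the cAMP response element TGACGTCA at *PPP1R15A*.
DDIT3, chr12:57914585-57914614, minus strand: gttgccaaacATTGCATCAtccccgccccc
TRIB3, chr20:361525-361554, plus strand: ttagctccggtTTGCATCAcccggaccggg
CHAC1, chr15:41245449-41245478, plus strand: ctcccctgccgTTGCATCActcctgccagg
ASNS, chr7:97501770-97501799, minus strand: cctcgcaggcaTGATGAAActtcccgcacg
PSAT1, chr9:80912297-80912326, plus strand: ccctaggcgctTTGCATCAgcgtgcacagc
SHMT2, chr12:57623942-57623971, plus strand: agccctgcagaTGATGCAAccgagcttcac
SHMT2, chr12:57623964-57623993, plus strand: agcttcactgcTTGCATCAggcaggggtcc
PPP1R15A, chr19:49375609-49375638, plus strand: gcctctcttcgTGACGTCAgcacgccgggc

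At *TRIB3* the same 30 bases occurred 3 times, beginning at positions 361525, 361558, and 361591 of chromosome 20, which places the first base of the elements at -450, -417, and -384 bp from the counted start site. The elements of *DDIT3* and *PSAT1* lay in introns of the GENCODE annotation, while those of *TRIB3*, *CHAC1*, *ASNS*, and *SHMT2* lay in a UTR of at least 1 annotated transcript. The cAMP response element of *PPP1R15A* also lay in an annotated UTR, at -28 bp from the counted start site, and 3.15% of all windows held that motif. The endoplasmic reticulum stress element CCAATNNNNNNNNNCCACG was found near none of the 10 genes and in 0.155% of all windows. The core letters of HIF binding sites were common everywhere, ACGTG in 52.0% and GCGTG in 72.9% of all windows, and they occurred near 4 and 8 of the 10 genes. The E-box CACGTG, which contains ACGTG, was present near *ATF4* and *SHMT2* and in 17.8% of all windows. *PHGDH* had none of these motifs in its window. Such a match is a description of the letters, not evidence of binding, and a window without a match says only that these letters are not in it.

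**Figure D1:**
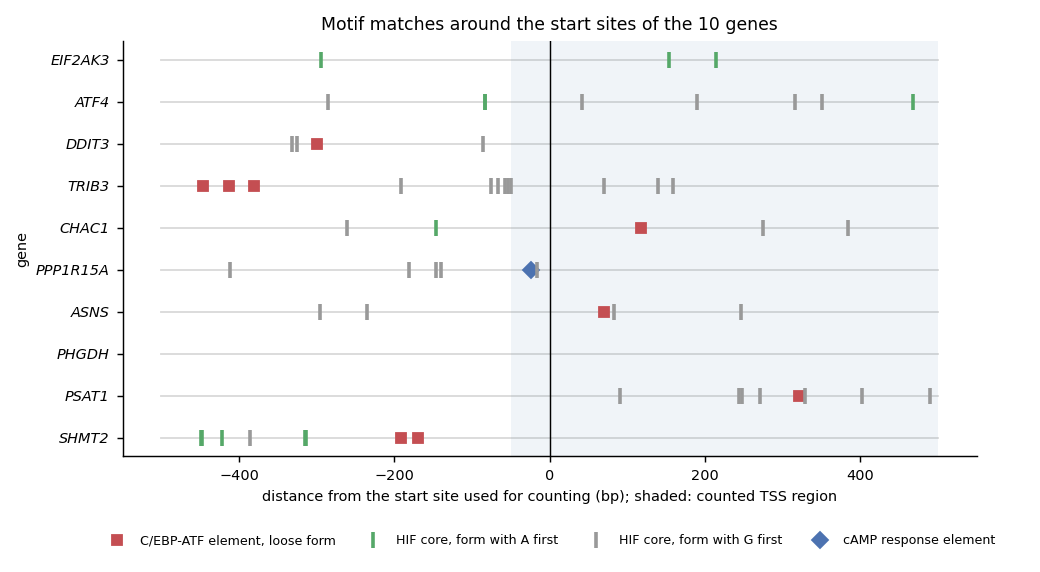
Motif matches around the start sites of the 10 genes. Rows are genes and the x axis is the distance in bp from the start site used for counting, with the counted TSS region shaded; red squares mark the loose C/EBP-ATF element, green and grey bars the HIF core letters ACGTG and GCGTG, and the blue diamond the cAMP response element. Red squares stand in 6 of the 10 rows, with 3 in the row of *TRIB3*, and the row of *PHGDH* is empty.

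Gene body totals ran from 18125234 to 23622392 reads per library and TSS totals from 2783581 to 5966348, and the 2 lowest TSS totals, 2783581 and 3011758, belonged to replicate 1 of HIF1A-/- cells in normoxia and in hypoxia. Levels are given as counts per 1000000 reads (CPM) after TMM normalization, or per kb of region as well (RPKM) where genes are set against each other. The epithelial markers *EPCAM*, *KRT8*, *KRT18*, and *CDH1* had at least 47.8 CPM in every library, whereas the colonocyte markers *VIL1*, *LGALS4*, and *CDH17* had at most 0.622, 1.59, and 3.69 CPM. The intestinal transcription factor gene *CDX2* lay between, at 13.4 to 19.3 CPM. Of 8 markers of leukocytes, endothelium, and fibroblasts, *PTPRC*, *CD3E*, *PECAM1*, *COL1A2*, and *DCN* had at most 0.441 CPM in any library, and *CDH5* had at most 1.62 CPM. The remaining markers, *CD68* and *COL1A1*, reached 13.5 and 49.3 CPM. The targeted gene *HIF1A* had 138 and 150 CPM at 21% O2 and 130 and 161 CPM at 1% O2 in WT cells, against 165 and 137 at 21% O2 and 175 and 158 at 1% O2 in the HIF1A-/- line, which does not check the genotype because the disruption leaves its start site in place.

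Per length, *ATF4* was the most densely transcribed of the 10 gene bodies, with a mean of 48.4 RPKM over the 8 libraries, above 99.6% of the gene bodies tested. It was followed by *PPP1R15A* at 7.41, *DDIT3* at 6.79, and *SHMT2* at 5.64 RPKM. *TRIB3*, *PSAT1*, *CHAC1*, *PHGDH*, and *ASNS* lay between 2.57 and 1.295 RPKM. *EIF2AK3*, whose gene body is the longest of the 10 at 69837 bp, had the lowest density at 0.744 RPKM, below the median of the gene bodies tested. These means carry the spread between libraries that is given below, and neighbours in the order such as *PPP1R15A* and *DDIT3*, or *TRIB3* and *PSAT1*, did not differ beyond it. Read counts behind the gene body levels ran from 50 in the library with the fewest reads on *CHAC1* to 2335 in that with the most reads on *PSAT1*.

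In the gene body of *EIF2AK3* (chromosome 2, 88856257 to 88926093, minus strand), replicates 1 and 2 had 53.6 and 55.5 CPM at 21% O2 and 55.3 and 68.3 CPM at 1% O2 in WT cells, against 49.3 and 49.9 at 21% O2 and 38.5 and 45.3 at 1% O2 in the HIF1A-/- line. All 4 HIF1A-/- libraries lay below all 4 WT libraries. *ATF4* (chromosome 22, 39917569 to 39918691, plus strand) had 57.6 and 46.1 CPM at 21% O2 and 51.7 and 41.7 CPM at 1% O2 in WT cells, against 65.5 and 52.9 at 21% O2 and 63.8 and 55.3 at 1% O2 in the HIF1A-/- line. Replicate 1 was the higher one in each of the 4 groups, and both HIF1A-/- hypoxia libraries lay above both WT hypoxia libraries. *DDIT3* (chromosome 12, 57910370 to 57913299, minus strand) had 27.9 and 16.01 CPM at 21% O2 and 21.1 and 17.0 CPM at 1% O2 in WT cells, against 18.0 and 22.7 at 21% O2 and 15.8 and 20.6 at 1% O2 in the HIF1A-/- line. Its groups overlapped in every comparison, and its body also overlaps an annotated transcript on the same strand, whose reads cannot be told apart from those of *DDIT3*.

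*TRIB3* (chromosome 20, 362987 to 378203, plus strand) had 46.5 and 49.1 CPM at 21% O2 and 45.5 and 49.3 CPM at 1% O2 in WT cells, against 28.8 and 31.6 at 21% O2 and 34.6 and 27.9 at 1% O2 in the HIF1A-/- line. The WT libraries were close to each other and all above the HIF1A-/- libraries. *PPP1R15A* (chromosome 19, 49376649 to 49379319, plus strand) ran the other way, with 14.2 and 15.1 CPM at 21% O2 and 16.9 and 18.1 CPM at 1% O2 in WT cells, against 23.9 and 19.8 at 21% O2 and 24.8 and 25.6 at 1% O2 in the HIF1A-/- line. All 4 HIF1A-/- libraries were above all 4 WT libraries. *CHAC1* (chromosome 15, 41246347 to 41248717, plus strand) was the least abundant member, with 5.35 and 5.41 CPM at 21% O2 and 4.76 and 3.11 CPM at 1% O2 in WT cells, against 2.39 and 6.67 at 21% O2 and 3.11 and 5.16 at 1% O2 in the HIF1A-/- line. The difference between the HIF1A-/- replicates in normoxia exceeded any difference between its group means.

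The enzymes of amino acid supply follow. *ASNS* (chromosome 7, 97481428 to 97500853, minus strand) had 33.9 and 32.4 CPM at 21% O2 and 32.0 and 24.1 CPM at 1% O2 in WT cells, against 12.3 and 28.5 at 21% O2 and 13.2 and 24.9 at 1% O2 in the HIF1A-/- line. Both replicate 1 libraries of HIF1A-/- cells were low, and the body overlaps another annotated transcript on the same strand. *PHGDH* (chromosome 1, 120255419 to 120286849, plus strand) had 66.7 and 46.0 CPM at 21% O2 and 59.7 and 32.9 CPM at 1% O2 in WT cells, against 24.9 and 43.8 at 21% O2 and 30.5 and 40.7 at 1% O2 in the HIF1A-/- line. Replicate 1 was again the lower of the HIF1A-/- pairs, whereas in WT cells replicate 2 was the lower one. *PSAT1* (chromosome 9, 80912991 to 80945009, plus strand) had 115.7 and 78.8 CPM at 21% O2 and 96.9 and 54.7 CPM at 1% O2 in WT cells, against 70.8 and 75.4 at 21% O2 and 69.2 and 63.2 at 1% O2 in the HIF1A-/- line. *SHMT2* (chromosome 12, 57625149 to 57628718, plus strand) had 24.3 and 18.0 CPM at 21% O2 and 22.1 and 11.0 CPM at 1% O2 in WT cells, against 24.7 and 19.1 at 21% O2 and 23.4 and 18.4 at 1% O2 in the HIF1A-/- line. Replicate 2 of WT hypoxia was the lowest library for both *PSAT1* and *SHMT2*.

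**Figure D2:**
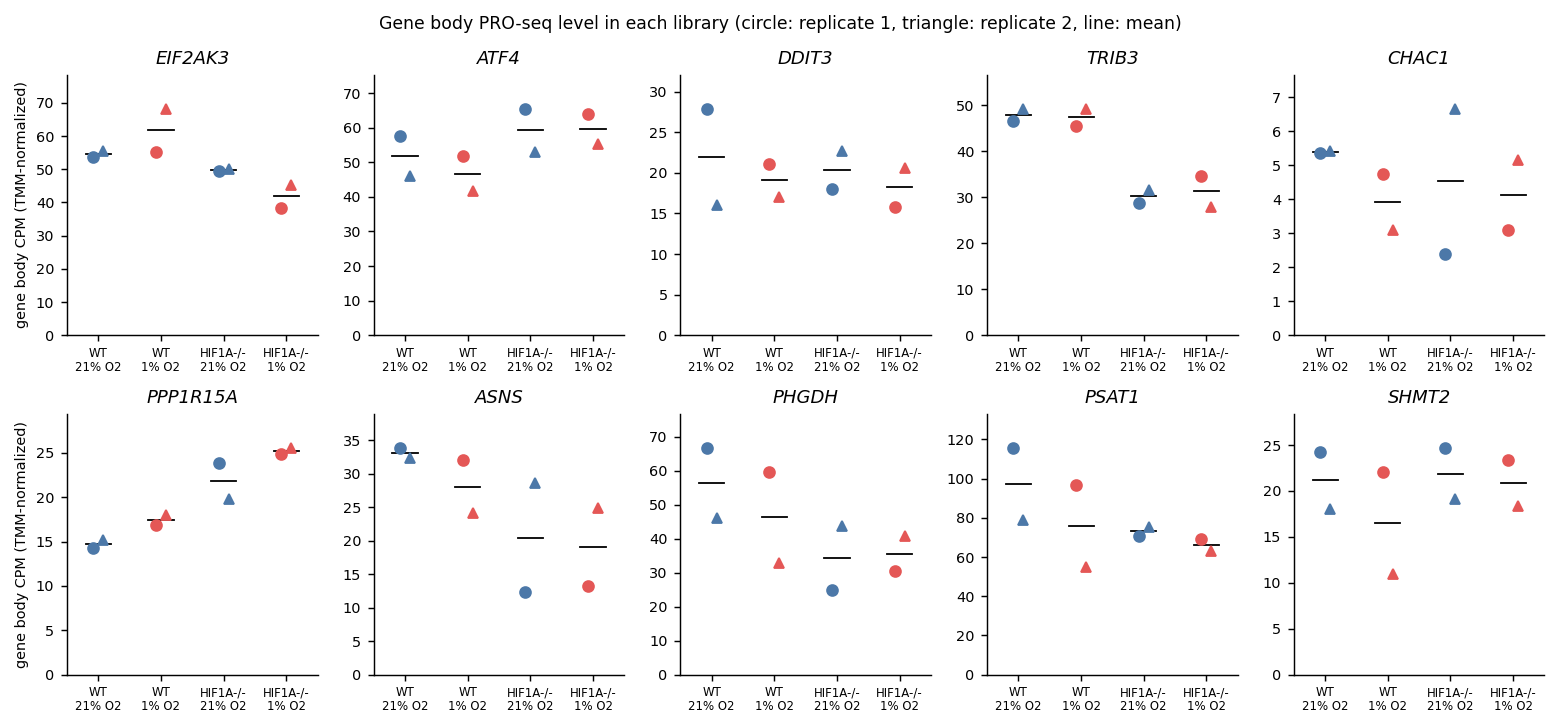
Gene body level of each gene in CPM (y axes, each starting at 0) in the 4 groups (x axes), with replicate 1 as a circle, replicate 2 as a triangle, and the group mean as a line; blue is 21% O2 and red 1% O2. WT and HIF1A-/- points separate for *EIF2AK3*, *TRIB3*, and *PPP1R15A*, while the HIF1A-/- replicates of *ASNS*, at 12.3 and 28.5 CPM in normoxia, stand far apart.

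After 90 min at 1% O2, none of the 10 genes passed the test in WT cells. The gene body log2 fold changes ran from -0.46 for *CHAC1* to 0.25 for *PPP1R15A*, with 8 of the 10 below 0 and a median of -0.22, against a median of -0.02 and 52.5% below 0 over all 16686 gene bodies. *ATF4* went from 51.8 ± 8.14 CPM (SD, n = 2) to 46.7 ± 7.13, a log2 fold change of -0.15 with a 95% interval of -0.59 to 0.28. *DDIT3* was at -0.21 (95% interval -0.88 to 0.46) and *TRIB3* at -0.01 (-0.37 to 0.34). Differential transcription was called at an FDR of 10% by the quasi-likelihood test of edgeR with Benjamini-Hochberg adjustment over all genes, which called 0.431% of all gene bodies in this comparison and 0 of the 10 (0 at an unadjusted p under 0.05, and 0 by DESeq2). A p that misses the threshold does not show that a gene was unchanged, and the intervals of the 10 genes together reached from -1.61 for *CHAC1* to 0.71 for *ASNS*. With the replicate number as a term in the fit (the replicate block), 5.51% of all gene bodies were called and still 0 of the 10.

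Which genes were below 0 in WT cells turned on single libraries. Without replicate 2 of WT hypoxia, 4 of the 10 genes were below 0, and without replicate 1 of WT normoxia 5 were. By replicate pair, *SHMT2* went by -0.14 in pair 1 and by -0.72 in pair 2 on the log2 scale, *PSAT1* by -0.26 and -0.53, and *PHGDH* by -0.16 and -0.48. *PPP1R15A* had values of like size above 0 in both pairs, 0.25 in pair 1 and 0.26 in pair 2, and its level went from 14.7 ± 0.636 to 17.5 ± 0.841 CPM (SD, n = 2). Its fitted log2 fold change of 0.25 had a 95% interval of -0.14 to 0.64 and an adjusted p of 0.897 by edgeR, and between 0.347 and 1 over 15 alternative settings.

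In HIF1A-/- cells, the gene body log2 fold changes of hypoxia over normoxia ran from -0.24 for *EIF2AK3* to 0.21 for *PPP1R15A*, with 6 below 0 and a median of -0.08 (0.00 over all gene bodies). The edgeR test called 0 of them (0 at an unadjusted p under 0.05, and 0 by DESeq2) and 0% of all gene bodies. The interaction, which tests whether this response differed between WT and HIF1A-/- cells, was called for 0 of the 10 genes (0 at an unadjusted p under 0.05, and 0 by DESeq2) and for 0.0539% of all gene bodies, or 0 and 0.384% with the replicate block. The interaction was largest for *EIF2AK3*, at 0.43 with a 95% interval of -0.08 to 0.93 and an adjusted p of 1 by edgeR. With the replicate block the interval for *EIF2AK3* was 0.08 to 0.77 (adjusted p = 0.827 by edgeR). Its WT mean was 54.5 ± 1.34 CPM (SD, n = 2) before and 61.8 ± 9.16 CPM after hypoxia, and its HIF1A-/- mean was 49.6 ± 0.417 CPM before and 41.9 ± 4.86 CPM after. The 2 responses and the interaction share their libraries, so these values are not independent of each other.

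At TSS regions, which ran from 50 bp upstream to 500 bp downstream of the start site, hypoxia was called for 0 of the 10 genes in WT cells, in HIF1A-/- cells, and in the interaction, each with 0 at an unadjusted p under 0.05 and 0 by DESeq2. The edgeR test called 0.0460%, 0%, and 0.00657% of all TSS regions in these comparisons. *ATF4* had one of the strongest TSS signals in the experiment, a density above 99.8% of the TSS regions tested, with 663 and 712 CPM in WT normoxia and 662 and 717 in WT hypoxia. Its log2 fold change there was 0.00 with a 95% interval of -0.29 to 0.30. *TRIB3* had the lowest TSS fold change of the 10 in WT cells, going from 32.6 and 30.03 CPM to 24.8 and 19.0 CPM. Both hypoxia libraries of *TRIB3* lay below both normoxia libraries, but the log2 fold change of -0.52 had a 95% interval of -1.11 to 0.07 and an adjusted p of 0.922 by edgeR.

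**Figure D3:**
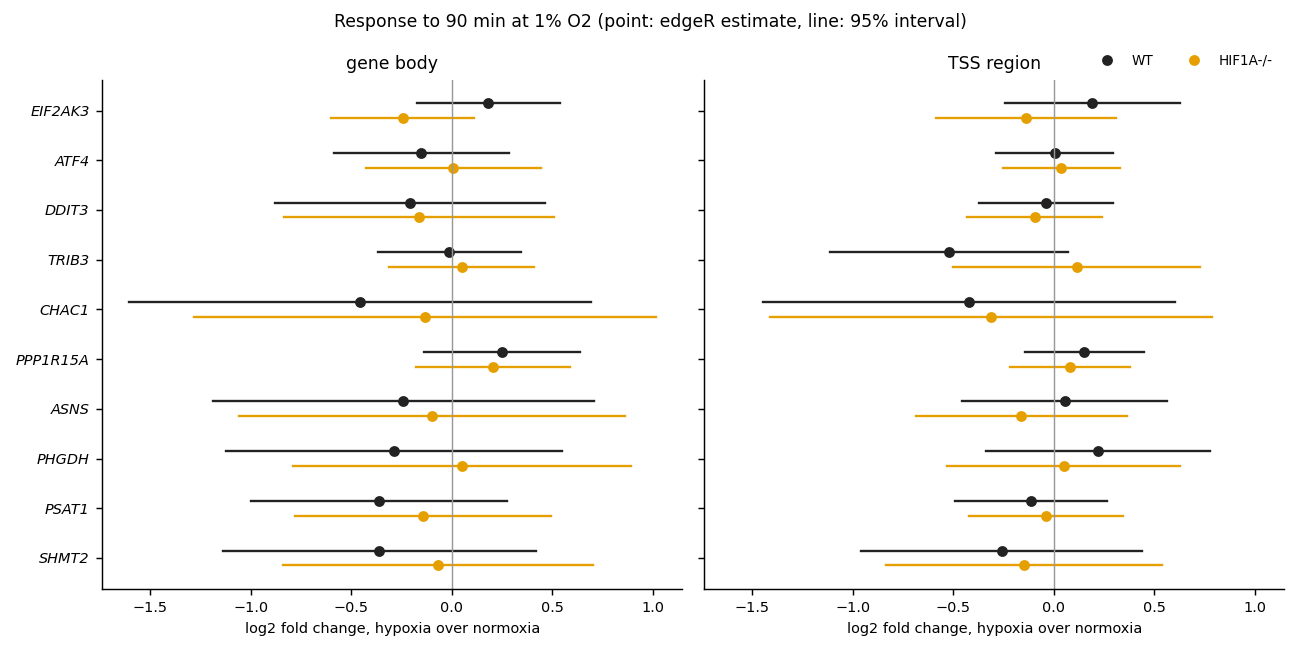
Response of the 10 genes (rows) to 90 min at 1% O2, as the log2 fold change of hypoxia over normoxia (x axis) in gene bodies (left) and TSS regions (right). Points are edgeR estimates and lines 95% intervals without the replicate block, in black for WT and orange for HIF1A-/- cells. Every interval shown includes 0, and the intervals of *CHAC1* are the widest.

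Other genes of the pathway were followed in 7 lists that hold 92 genes, of which 87 gene bodies were tested. In WT hypoxia, edgeR called 2 of these 87 higher and 0 lower, both in a list of other stress output genes (13 tested), where 9 genes were above and 4 below 0. The calls were 2.3% of the 87, against 0.431% of all gene bodies. *DDIT4*, which encodes an inhibitor of mTORC1, rose to 172 ± 44.4 CPM from 23.6 ± 3.34 CPM (SD, n = 2), or by 2.87 on the log2 scale (adjusted p = 0.0459 by edgeR). *STC2*, which encodes a secreted glycoprotein, rose to 367 ± 29.6 CPM from 128 ± 18.9 CPM, or by 1.52 on the log2 scale (adjusted p = 0.0708 by edgeR). Both are known as hypoxia-inducible genes as well as stress response genes, and neither changed in HIF1A-/- cells by more than the SD, at 11.5 ± 4.69 and 12.6 ± 6.58 CPM for *DDIT4* and 118 ± 32.5 and 123 ± 30.2 CPM for *STC2*. With the replicate block their interactions were called, at 2.73 (adjusted p = 0.00521 by edgeR) and 1.48 (adjusted p = 0.0581 by edgeR). Without it the interactions were not called, at adjusted p = 0.548 and 0.693 by edgeR. In WT hypoxia the block called 4 of the 13 genes of this list higher and 0 lower. That was 30.8% of them, against 5.51% of all gene bodies in both directions, or 623 of 16686 gene bodies called higher. Besides *DDIT4* and *STC2* the 4 genes included *GDF15*, which went from 37.3 ± 14.4 to 64.1 ± 32.7 CPM. Its blocked log2 fold change was 0.74 (adjusted p = 0.0169 by edgeR, and 0.897 without the block).

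Across the other lists, no gene passed the main test in WT hypoxia, and most values were slightly below 0. Of 18 genes for the eIF2 kinases, eIF2 and eIF2B subunits, and their regulators, 17 were below 0 with a median log2 fold change of -0.20. All 13 genes for tRNA synthetases and a tRNA exporter were below 0, with a median of -0.21. In the list of the IRE1 and ATF6 branches of the unfolded protein response, 12 of 16 genes were below 0, with a median of -0.36. The same lists were also mostly below 0 in HIF1A-/- cells, with 15 of 18, 11 of 13, and 14 of 16 genes and medians of -0.14, -0.13, and -0.42. In WT cells the replicate block called 4 lower genes in the first of these lists, 0 in the second, and 6 in the third, where it called 1.77% of all gene bodies lower. Of these, the chaperone gene *HYOU1* had a blocked log2 fold change of -0.80 (adjusted p = 0.0198 by edgeR), *PDIA4*, a protein disulfide isomerase, -0.59 (0.0276), and *CRELD2* -1.01 (0.0325). *EIF2B3* and *EIF2B2*, subunits of the exchange factor that recycles eIF2, had blocked log2 fold changes of -0.38 and -0.66 (adjusted p = 0.0794 and 0.0868 by edgeR). Transporters (9 tested), amino acid and one-carbon enzymes (13 tested), and other transcription factors (5 tested) had 8, 7, and 4 genes below 0 and no call in either fit. In HIF1A-/- cells none of the 87 genes was called in either fit, where the block called 0.0360% of all gene bodies and the fit without it none.

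Between the genotypes, *TRIB3* and *PPP1R15A* had gene body differences of like size in normoxia and in hypoxia. In normoxia *TRIB3* was at 47.8 ± 1.82 CPM (SD, n = 2) in WT cells and at 30.2 ± 2.02 CPM in the HIF1A-/- line, and in hypoxia at 47.4 ± 2.65 and 31.2 ± 4.69 CPM. Its log2 fold change of HIF1A-/- over WT was -0.66 in normoxia (95% interval -1.02 to -0.30) and -0.60 in hypoxia (-0.96 to -0.24), with adjusted p = 0.131 and 0.106 by edgeR. With the replicate block the adjusted p was 0.0207 and 0.0159, and by DESeq2 it was 0.0196 and 0.0256. *PPP1R15A* was at 14.7 ± 0.636 and 21.9 ± 2.86 CPM in normoxia and at 17.5 ± 0.841 and 25.2 ± 0.519 CPM in hypoxia. The log2 fold changes of this gene were 0.57 (95% interval 0.19 to 0.96) and 0.53 (0.14 to 0.92), with adjusted p = 0.256 and 0.18 by edgeR, 0.0504 and 0.0332 with the replicate block, and 0.0894 and 0.0905 by DESeq2. In both comparisons every library of one genotype lay on the same side of every library of the other for these 2 genes, and also for *EIF2AK3*.

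Counted over the 10 genes, edgeR called 0 in normoxia (2 at an unadjusted p under 0.05, and 2 by DESeq2) and 0 in hypoxia (3 at an unadjusted p under 0.05, and 3 by DESeq2), where it called 1.78% and 4.26% of all gene bodies. Those shares are for edgeR calls alone. The unadjusted and DESeq2 counts stand without a share of all gene bodies and cannot be set against one. With the replicate block it called 1 higher and 1 lower in normoxia, where 10.3% of all gene bodies were called, and 2 higher and 2 lower in hypoxia, where 28.2% were called. The added genes in hypoxia were *EIF2AK3* and *ATF4*. *EIF2AK3* had a log2 fold change of -0.56 (95% interval -0.92 to -0.20, adjusted p = 0.128 by edgeR, 0.0101 with the replicate block, and 0.0495 by DESeq2), against -0.14 (-0.49 to 0.22) in normoxia. *ATF4* in hypoxia was at 46.7 ± 7.13 CPM (SD, n = 2) in WT and 59.6 ± 6.03 CPM in HIF1A-/- cells, a log2 fold change of 0.35 (95% interval -0.08 to 0.79) with adjusted p = 0.421 by edgeR, 0.0297 with the replicate block, and 0.419 by DESeq2. In normoxia *ATF4* was at 0.19 (-0.24 to 0.63), with adjusted p = 0.938 by edgeR and 0.274 with the replicate block.

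Averaged over both oxygen levels, a comparison added after the data had been seen, the genotypes differed at 1 higher and 1 lower gene of the 10 by edgeR, against 10.0% of all gene bodies called. These were *TRIB3*, with a mean of 30.7 CPM over the 4 HIF1A-/- libraries against 47.6 over the 4 WT libraries, 64.6% of the WT level (log2 fold change -0.63, SE 0.110, adjusted p = 0.016 by edgeR), and *PPP1R15A*, with 23.5 against 16.1 CPM, 1.46 times the WT level (0.55, SE 0.119, adjusted p = 0.0368 by edgeR). *TRIB3* was called in all 14 alternative settings and *PPP1R15A* in 9 of 14, with adjusted p by edgeR of 0.133 without replicate 1 of WT normoxia, 0.132 without replicate 2 of WT normoxia, 0.104 without replicate 1 of WT hypoxia, 0.109 without replicate 1 of HIF1A-/- hypoxia, and 0.101 without replicate 2 of HIF1A-/- hypoxia. With the replicate block 2 were higher and 3 lower, against 36.0% of all gene bodies, with *EIF2AK3* at -0.35 (adjusted p = 0.0114 by edgeR), *ATF4* at 0.27 (0.0157), and *ASNS* at -0.70 (0.0692) added. The 4 WT libraries did not overlap the 4 HIF1A-/- libraries for 3 of the 10 genes, *TRIB3*, *EIF2AK3*, and *PPP1R15A*, and for 15.7% of all gene bodies.

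The means of *ASNS*, *PHGDH*, and *PSAT1* were lower in HIF1A-/- cells at both oxygen levels, by differences that did not pass the main test. In normoxia *ASNS* was at 33.1 ± 1.03 CPM (SD, n = 2) in WT and 20.4 ± 11.5 CPM in HIF1A-/- cells, and *PHGDH* was at 56.4 ± 14.7 and 34.4 ± 13.3 CPM. On the log2 scale *ASNS* differed by -0.70 (95% interval -1.66 to 0.26, adjusted p = 0.765 by edgeR) and *PHGDH* by -0.71 (-1.55 to 0.12, adjusted p = 0.669). Without replicate 1 of HIF1A-/- normoxia these values were -0.18 and -0.33, and without replicate 2 they were -1.43 and -1.18. *PSAT1* was at -0.41 (-1.05 to 0.22) and *SHMT2*, whose means were instead slightly higher in HIF1A-/- cells, at 0.05 (-0.72 to 0.82). In hypoxia the values were -0.56 (-1.51 to 0.40) for *ASNS*, -0.38 (-1.21 to 0.46) for *PHGDH*, -0.19 (-0.83 to 0.44) for *PSAT1*, and 0.34 (-0.43 to 1.12) for *SHMT2*. The remaining genes, *DDIT3* and *CHAC1*, had log2 fold changes of -0.11 (-0.78 to 0.56) and -0.25 (-1.39 to 0.90) in normoxia and of -0.07 and 0.08 in hypoxia.

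**Figure D4:**
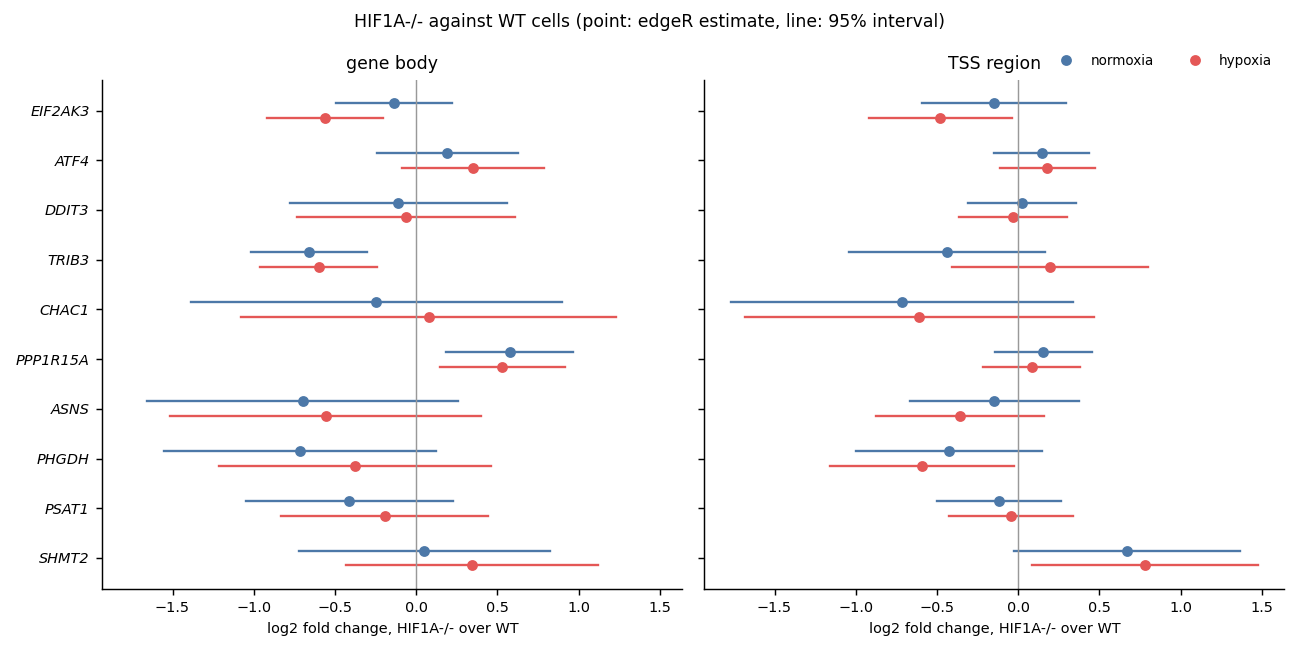
Difference between the genotypes for the 10 genes (rows), as the log2 fold change of HIF1A-/- over WT cells (x axis) in gene bodies (left) and TSS regions (right). Points are edgeR estimates and lines 95% intervals without the replicate block, in blue for normoxia and red for hypoxia; the gene body intervals of *TRIB3* lie below 0 and those of *PPP1R15A* above 0 at both oxygen levels.

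At the TSS, the WT and HIF1A-/- libraries of both oxygen levels overlapped for *TRIB3*, *PPP1R15A*, and *SHMT2*. Compared within each oxygen level, the genotypes overlapped for *TRIB3* in hypoxia only and for *SHMT2* in normoxia only. For *PPP1R15A* they overlapped at neither level, with HIF1A-/- cells higher. In hypoxia its lower HIF1A-/- library, at 386.63 CPM, was barely above its higher WT library, at 386.49 CPM. *TRIB3* had 32.6 and 30.03 CPM at 21% O2 and 24.8 and 19.0 CPM at 1% O2 in WT cells, against 24.6 and 21.8 at 21% O2 and 29.2 and 21.2 at 1% O2 in the HIF1A-/- line, with a log2 fold change of -0.44 in normoxia and 0.20 in hypoxia. *PPP1R15A* had 325 to 386 CPM over the WT libraries and 369 to 427 over the HIF1A-/- libraries, and its log2 fold changes of 0.15 and 0.08 were smaller than in the gene body. For both genes the difference between the regions was not tested over the genotypes in hypoxia, and the pausing index in normoxia is given below. *SHMT2* had 36.9 and 28.7 CPM at 21% O2 and 28.4 and 26.6 CPM at 1% O2 in WT cells, against 69.5 and 36.2 at 21% O2 and 57.7 and 37.3 at 1% O2 in the HIF1A-/- line. The means of *SHMT2* were higher in HIF1A-/- cells, where replicate 1 was the higher library. Replicate 2 of HIF1A-/- normoxia lay below replicate 1 of WT normoxia. The log2 fold changes were 0.67 in normoxia (95% interval -0.02 to 1.37) and 0.78 in hypoxia (0.09 to 1.48). In CPM these reads are scaled to TSS totals. Those totals were 11.2% and 12.9% of the reads of both regions in replicate 1 of HIF1A-/- normoxia and hypoxia. In the other libraries this share ran from 16.9% to 20.2%. Unscaled TSS reads of *SHMT2* were 166, 110, 135, and 155 in WT cells, against 192, 156, 174, and 160 in HIF1A-/- cells. The part of this scaling in the difference was not tested.

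Over the 10 TSS regions edgeR called 0 in normoxia (0 at an unadjusted p under 0.05, and 0 by DESeq2) and 0 in hypoxia (3 at an unadjusted p under 0.05, and 0 by DESeq2), where edgeR called 0.657% and 1.10% of all TSS regions. The unadjusted and DESeq2 counts stand without a share of all TSS regions. With the replicate block, *SHMT2* was called higher in hypoxia (adjusted p = 0.0291 by edgeR) and *PHGDH* and *EIF2AK3* lower (0.0476 and 0.0725), where 14.4% of all TSS regions were called. *PHGDH* had 68.6 and 64.0 CPM at 21% O2 and 76.9 and 77.5 CPM at 1% O2 in WT cells, against 35.1 and 62.5 at 21% O2 and 41.8 and 59.9 at 1% O2 in the HIF1A-/- line. All HIF1A-/- libraries of *PHGDH* were below the WT libraries, again with replicate 1 lowest. The 4 libraries of one genotype did not overlap those of the other at 3 of the 10 TSS regions, against 12.7% of all TSS regions. These were *PHGDH* and *EIF2AK3*, lower in HIF1A-/- cells, and *ATF4*, higher. Averaged over both oxygen levels, edgeR called 0 of the 10 TSS regions (3 at an unadjusted p under 0.05, and 1 by DESeq2) against 6.39% of all by edgeR. The replicate block there called *SHMT2* higher and *PHGDH*, *EIF2AK3*, and *CHAC1* lower, against 22.3% of all.

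Replicates differed from each other more than usual for several of these genes. The pooled SD of log2 CPM within groups was 0.555 for *ASNS* and 0.481 for *PHGDH*, at or above that of 98.2% and 96.8% of the 501 gene bodies nearest to each in mean level. *CHAC1*, with few reads, had an SD of 0.607, at or above that of 79.2% of its neighbours. *PSAT1* and *SHMT2* had 0.355 and 0.426, at or above 91.0% and 90.8% of their neighbours. *PPP1R15A*, at 0.106, was at or above 10.2% of its neighbours, and *TRIB3* and *EIF2AK3* were at 27.1% and 31.9%. On the log2 scale, replicate 2 exceeded replicate 1 of HIF1A-/- normoxia by 1.21 for *ASNS*, 0.81 for *PHGDH*, and 1.44 for *CHAC1*, and of HIF1A-/- hypoxia by 0.91, 0.41, and 0.72. In WT hypoxia the same difference was instead -0.41, -0.86, and -0.60 for these genes. Replicate 1 of HIF1A-/- cells had the lowest TSS totals, but its gene body totals, 21999565 reads in normoxia and 20332353 in hypoxia, were within the range of the other libraries. The part of depth or of the culture in these values was not tested. Cystine transporter *SLC7A11*, in the transporter list, was also spread in HIF1A-/- cells, at 28.6 ± 15.8 CPM at 21% O2 and 27.6 ± 13.1 CPM at 1% O2 (SD, n = 2), where WT cells had 73.0 ± 3.68 and 71.99 ± 0.661 CPM.

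**Figure D5:**
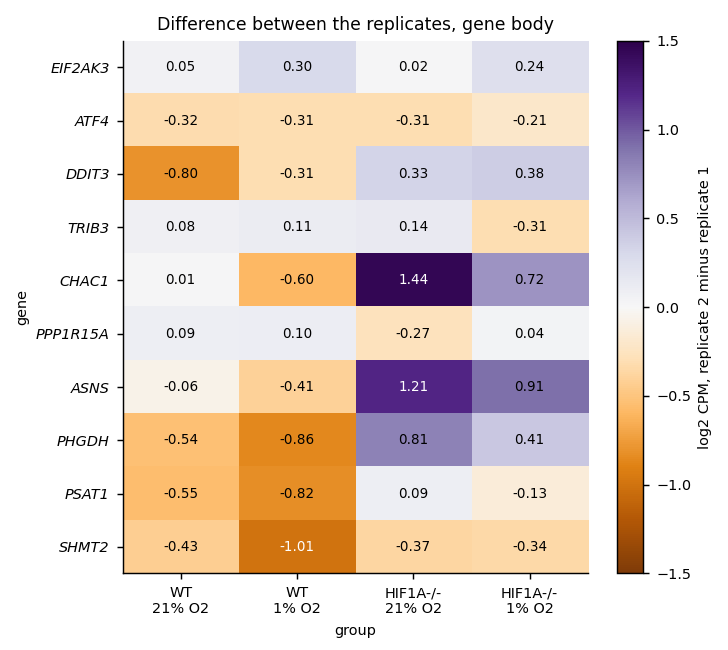
Difference between the replicates of each group in gene body level, as log2 CPM of replicate 2 minus replicate 1, for the 10 genes (rows) in the 4 groups (columns); purple is positive and orange negative. *ATF4* and *SHMT2* are negative in all 4 columns, and *CHAC1*, *ASNS*, and *PHGDH* are positive in both HIF1A-/- columns.

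The pausing index, the read density of the TSS region over that of the gene body, placed *EIF2AK3* and *SHMT2* at opposite ends of the 10 genes. For *EIF2AK3* the index was 35.7 and 37.1 at 21% O2 and 39.8 and 43.0 at 1% O2 in WT cells, against 21.6 and 33.5 at 21% O2 and 27.8 and 35.1 at 1% O2 in the HIF1A-/- line. *SHMT2* had 2.20 and 2.19, 2.098 and 3.81, 2.42 and 2.44, and 2.42 and 2.65 in the same order. *ATF4*, with the densest signal in both regions, had 5.24 and 6.66, 6.55 and 8.49, 3.30 and 5.50, and 3.62 and 6.01. The lowest values of *EIF2AK3* and *ATF4* came from replicate 1 of HIF1A-/- cells, where the median index over 14494 genes was also lowest, at 6 in normoxia and 6.83 in hypoxia against 9.37 to 11.6 in the other 6 libraries. In a fit that takes each library's own totals into account, the index was called for 0 of the 10 genes in WT hypoxia, HIF1A-/- hypoxia, and HIF1A-/- against WT normoxia, where edgeR called 0.193%, 0%, and 0.0138% of all genes, and where the 95% intervals of 0, 0, and 1 of the 10 genes excluded 0. The log2 change in this fit is relative to each library's ratio of TSS to gene body totals. It can therefore differ from the change of the index values printed above. In WT hypoxia this log2 change was largest for *TRIB3*, at -0.58 (95% interval -1.17 to 0.02), and for *PHGDH*, at 0.49 (-0.08 to 1.05). Between the genotypes in normoxia it was 0.59 (0.01 to 1.18) for *ASNS*, with an adjusted p of 0.779 by edgeR, 0.20 (-0.41 to 0.81) for *TRIB3*, and -0.43 (-0.89 to 0.02) for *PPP1R15A*.

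Among the other genes of the pathway, the same 87 gene bodies held 1 higher and 1 lower call between the genotypes in normoxia and 1 higher and 4 lower in hypoxia, or 2.30% and 5.75% of them, against 1.78% and 4.26% of all gene bodies. *EIF2AK2*, which encodes PKR, the eIF2 kinase that responds to double-stranded RNA, was the higher one at both oxygen levels. At 21% O2 WT cells had 80.0 ± 11.6 CPM (SD, n = 2) and HIF1A-/- cells 131 ± 3.51 CPM, and at 1% O2 they had 59.3 ± 7.60 and 125 ± 3.72 CPM, with log2 fold changes of 0.71 and 1.08 (adjusted p = 0.0902 and 0.0121 by edgeR). *EIF4EBP1*, a translational repressor and ATF4 target, was lower at both, at 75.1 ± 6.03 against 41.1 ± 0.288 CPM in normoxia and 78.9 ± 7.26 against 46.0 ± 5.44 CPM in hypoxia (adjusted p = 0.0379 and 0.0368 by edgeR). The other lower genes in hypoxia were *DDIT4* and *STC2*, whose WT increase is described above and enters this comparison, and *GPT2*, a mitochondrial alanine transaminase, at 75.7 ± 14.7 and 44.3 ± 5.40 CPM (adjusted p = 0.098 by edgeR). *DDIT4* was also lower in HIF1A-/- cells in normoxia, at 23.6 ± 3.34 CPM in WT and 11.5 ± 4.69 CPM in HIF1A-/- cells. Its adjusted p there was 0.467 by edgeR and 0.0114 with the replicate block. With the replicate block these counts were 3 higher and 7 lower in normoxia and 11 higher and 16 lower in hypoxia, or 11.5% and 31.0% of the 87 against 10.3% and 28.2% of all gene bodies. Averaged over both oxygen levels they were 2 higher and 7 lower without the block and 13 higher and 20 lower with it, or 10.3% and 37.9% against 10.0% and 36.0% of all. These shares were near those over all gene bodies. Among these, *SLC7A11* was at a log2 fold change of -1.37 (adjusted p = 0.0345 by edgeR), the tRNA synthetase genes *EPRS* and *LARS* were at -0.44 and -0.40 (0.0511 and 0.053), and *ERN1*, the sensor of the IRE1 branch, was at 0.34 (0.0587).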

How the data were processed

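PRO-seq was carried out on 8 libraries, 2 per group, and groups were taken from the sample labels. The authors deposited raw read counts per gene, not normalized, in gene bodies (from 1001 bp past the TSS) and in 551 bp TSS regions of 23193 RefSeq genes on GRCh37. Per the labels and methods, they merged 2 sequencing runs, trimmed, aligned without splicing, kept confident alignments, and counted with featureCounts, with 1 TSS and 1 body per gene, so genes with several active start sites are represented by only one. The submitters' processing notes name bcl2fastq 2.20.0.422, FastQC 0.11.5, HISAT2 2.1.0, SAMtools 1.5, and Subread 1.6.2.

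From these counts, genes above 0.5 counts per 1000000 reads (CPM) in at least 2 libraries entered the quasi-likelihood test of edgeR 4.0.16 (glmQLFit, glmQLFTest; R 4.3.3) after TMM normalization. One fit of 4 group means was made over all 8 libraries for each region, with Benjamini-Hochberg adjustment over all genes tested and an FDR of 10%. P-values measure the spread between 2 cultures per group. The pausing index, with 0.5 reads added for each region, was tested in a fit of both regions with library terms and each table's own totals. The edgeR fits of each region, with and without the block, were checked on simulated counts with known fold changes in WT hypoxia. The simulation held no replicate effect and the same dispersion for all genes. It therefore does not test how the fits handle paired cultures or genes with a wide spread. Motifs were searched in GRCh37 windows of 1001 bases, and annotation came from GENCODE v44 lifted to that build.

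The 10 genes, the other gene lists, and their tests were chosen with earlier results of these data known. All 10 genes are named in every comparison, and from each other list at most 3 genes a direction with the smallest p among those called. Whether the replicate numbers of the labels pair the samples was checked from deviations from group means. These correlated between same-numbered libraries, across genes, by 0.484 to 0.790 in gene bodies and 0.216 to 0.519 in TSS regions over the 6 pairs of groups, and the numbers were taken as pairs. As the methods of the study name no block, the reported fit omits it, and blocked values stand beside it where they change a call. Alternatives were the replicate block, DESeq2 1.42.0, library totals without TMM, no filter, a filter of 2 CPM, only the groups compared, and leaving out each library. DESeq2 with the block and the genotype comparison averaged over oxygen levels were added after seeing the data. Depth differed most in TSS regions, and counting error there is largest for CHAC1, with as few as 20 reads.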

Additional observations from a re-analysis of the deposited data

Results flagged for a closer look

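For *EIF2AK3* in the gene body, both WT replicate pairs were above 0 in hypoxia, with log2 changes of 0.05 and 0.30, and both HIF1A-/- pairs were below 0, with -0.36 and -0.14. The difference between the genotypes in this response was 0.43 on the log2 scale (95% interval -0.08 to 0.93), which the interaction term of edgeR did not call (adjusted p = 1, and 0.827 with the replicate block). With the block, the 95% interval of this difference was 0.08 to 0.77. That of the HIF1A-/- response was -0.49 to -0.005 (adjusted p = 0.51 by edgeR). The TSS region of the same gene showed the same split, with 0.03 and 0.32 in WT pairs and -0.19 and -0.09 in HIF1A-/- pairs, and an interaction of 0.33 (95% interval -0.29 to 0.95, adjusted p = 1 by edgeR). For *ASNS* the TSS region was above 0 in both WT pairs, at 0.07 and 0.04, and below 0 in both HIF1A-/- pairs, at -0.22 and -0.12. Its interaction was 0.21 (95% interval -0.52 to 0.95, adjusted p = 1 by edgeR). None of these differences passed the test, and they drew attention only because all pairs of one genotype lay on the opposite side of 0 from all pairs of the other.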

How the results depend on the processing

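No member was called for hypoxia, in either genotype, region, or interaction, under any alternative run, nor was any pausing index. Below, shares of all features stand beside the counts of the replicate block, and the counts of the other settings stand without one. Genotype calls of the 10 gene bodies depended on the test. In normoxia (0 called) they were 2 with the replicate block (10.3% of all gene bodies), 2 by DESeq2, and 2 by DESeq2 with the block. In hypoxia (0 called) they were 4 with the block (28.2% of all gene bodies), 3 by DESeq2, 4 by DESeq2 with the block, and 1 with the filter of 2 CPM. Averaged over oxygen levels (2 called) they were 5 with the block (36.0% of all gene bodies), 3 by DESeq2, 4 by DESeq2 with the block, and 1 to 3 leaving out single libraries. At TSS regions the count in normoxia was 0 to 2 leaving out single libraries, where *CHAC1* and *SHMT2* were called without replicate 2 of HIF1A-/- normoxia. In hypoxia it was 3 with the block (14.4% of all TSS regions), 1 by DESeq2 with the block, 1 without a filter, and 1 with only the groups compared. Averaged, it was 4 with the block (22.3% of all TSS regions), 1 by DESeq2, 2 by DESeq2 with the block, and 3 without a filter. Leaving out single libraries it was 0 to 3, with 3 without replicate 2 of HIF1A-/- normoxia and 1 without replicate 2 of HIF1A-/- hypoxia. The causes were not tested. The replicate block changed no other call among the 10 genes. Over 2030 values of single members under alternatives, 1881 kept their side of the threshold and moved by less than 1 SE, 97 moved further, 47 passed the threshold newly, 5 no longer passed it, and 0 reversed a called direction. Limits are 2 cultures per group, 1 HIF1A-/- line, and few reads on *CHAC1*, with 50 to 145 in the gene body and 20 to 127 at the TSS.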

Other observations

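Over the 8 libraries, the gene bodies whose log2 level followed that of *ATF4* most closely, among 13011 genes with a mean of at least 5 CPM, were *PSMC4* (Pearson's r = 0.993), *ALOX12P2* (0.990), and *PSMD3* (0.989). *PSMC4* and *PSMD3* encode proteasome subunits. The 8 libraries share 4 groups and 2 replicate numbers, so these coefficients are given as a description.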
